A study of Caenorhabditis elegans with 4 samples.

Results

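The genes described here are the col-numbered collagen genes of Caenorhabditis elegans, most of which encode collagens of the cuticle. They were taken by name alone: every row of the gene table whose WormBase identifier carries a symbol made of col- and a number. This gave 156 genes of 20179 in the table. Footprints were measured by ribosome profiling, in which the stretches of messenger RNA covered by ribosomes are sequenced, in whole worms harvested as young adults. There were 2 libraries from wild type (N2) and 2 from a mutant strain carrying both cey-1(rrr12) and cey-4(ok858). cey-1 and cey-4 encode Y-box proteins, RNA-binding proteins built around a cold-shock domain. Nothing in the labels says whether the 2 libraries of a strain came from separate cultures, so p-values measure the spread between these libraries only, which may be technical.

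The cuticle is a collagen-rich extracellular coat that the epidermis secretes anew at each molt, and the last cuticle is the adult one. Cuticle collagens are small secreted proteins with Gly-X-Y repeats, and they fold as trimers, are cut by proteases and are then joined by tyrosine cross-links. Different members are made at different times within a molt and at different stages, and col-19 is the classic adult-specific member. Most col genes have no role assigned by mutation, in contrast to the collagens named for body shape (dpy, rol, sqt, bli and lon), whose loss alters the form of the worm. No protein or coding sequence was used here, so no sequence is shown.

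Library totals were 22303560 to 32913332 counts. Footprints on the mutated genes were nearly lost: cey-4 went from 263 and 267 CPM in N2 to 1.87 and 1.53 CPM in the mutant, and cey-1 from 69.9 and 73.6 to 3.85 and 4.14 CPM. CPM is the count relative to the TMM-scaled library total. No RNA-seq library was analysed here, so a change in footprints may reflect the amount of a message or its ribosome occupancy. In whole worms, fewer cells of a type and less RNA per cell cannot be told apart either. Counts were not divided by coding length, so ranks order genes by their share of footprints, not by footprints per codon. Near-identical collagen genes can share reads, and how the authors counted such reads is not given in the sources used here.

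Footprints on the col genes made up a large share of everything sequenced, and a small set of genes held nearly all of them. The col share of all counts was 10.8% (exact Clopper-Pearson 95% interval 10.756 to 10.777) and 11.6% (11.585 to 11.609) in N2 replicates 1 and 2. It was 11.4% (11.372 to 11.396) and 11.6% (11.625 to 11.652) in mutant replicates 1 and 2. These intervals hold counting error alone. The protocol in the labels names no molecular identifiers to tell PCR copies apart, so the intervals may be too narrow even for that. N2 replicate 1 was the low library and the other 3 lay close together, so the groups overlapped. The means were 11.2% ± 0.587 (SD, n = 2) in N2 and 11.5% ± 0.180 (SD, n = 2) in the mutant, a difference of 0.33 percentage points that was smaller than the spread within N2 (exact permutation test, 2-sided, p = 0.667). With 2 libraries against 2 that test cannot go below 0.33.

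Of the 25 genes with the most footprints in the whole table, 11 were col genes, as were 23 of the first 100. The first of them, col-140, ranked 7 among all genes. It had 8895 and 9594 CPM in N2 and 9786 and 10082 CPM in the mutant, and it held 8.26% of the col footprints in both N2 libraries and 8.63% in both mutant libraries. The mutant libraries were both above the N2 libraries, but the difference did not pass the test (edgeR log2 fold change 0.10 with SE 0.054, adjusted p = 0.138).

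**Figure D1:**
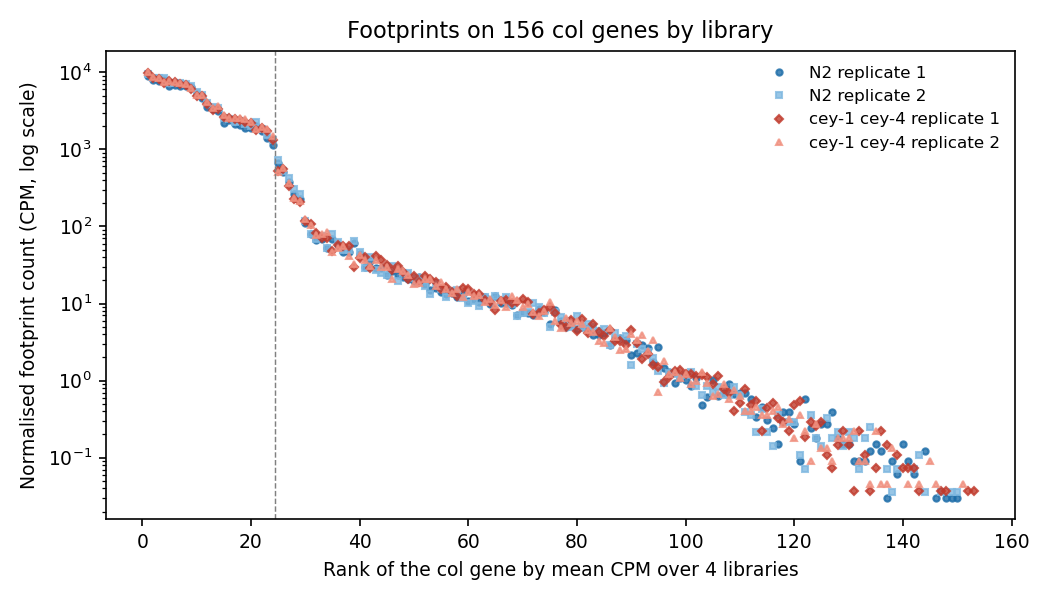
Normalised footprint count (CPM, log scale) of each col gene in each of the 4 libraries, against the rank of the gene by its mean CPM; zero counts are not drawn. The dashed vertical line marks the end of the first 24 genes, which all had a mean of at least 1000 CPM, and the 4 libraries lie on nearly the same curve.

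In each library, 8 col genes were enough for 50% of the col footprints and 20 for 90%, and 32 or 33 for 99%. The 10 most abundant genes held 65.7% and 65.3% of the col footprints in N2 and 64.8% and 64.2% in the mutant. Both mutant libraries were thus below both N2 libraries, by 1.02 percentage points on average, which is as far as the exact permutation test can go with 4 libraries (p = 0.33). Expressed as an effective number, the count of equally abundant genes that would give the same concentration, the family behaved like 19.2 and 19.4 genes in N2 and 19.4 and 19.5 genes in the mutant (exact permutation p = 0.33). Every binomial 95% interval on the share of the first 10 genes was narrow (65.66 to 65.76 in N2 replicate 1 and 64.12 to 64.24 in mutant replicate 2), so depth was not what limited this comparison.

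**Figure D2:**
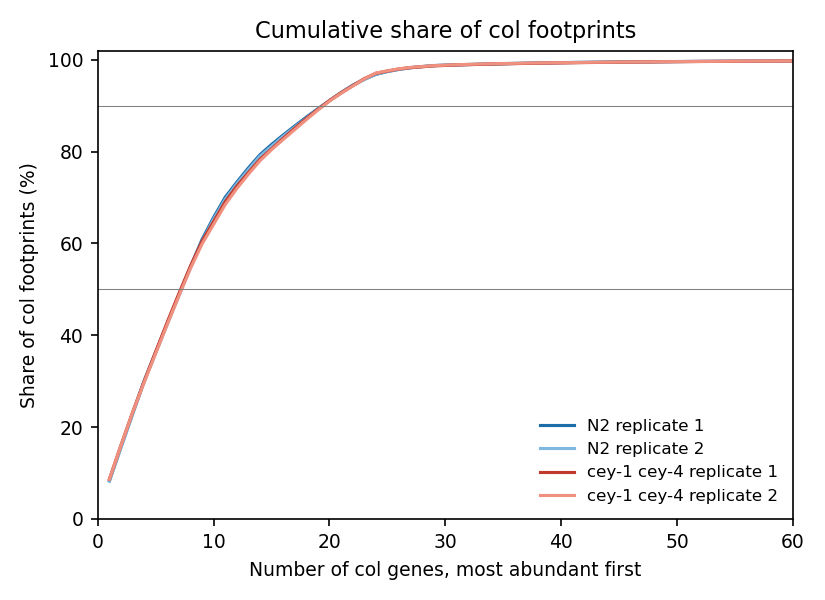
Cumulative share of col footprints (%) against the number of col genes, most abundant first, with 1 line per library. The lines pass 50% at 8 genes and 90% at 20 genes in all 4 libraries.

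By mean CPM the family fell into a compact upper set and a long tail, with limits drawn after the values were seen. The upper set of 24 genes, at means of 1324 to 9589 CPM, held 97.0% of the col footprints. Between 100 and 1000 CPM lay 6 genes with 1.88% of the footprints, and between 10 and 100 CPM 38 genes with 1.00%. The remaining 88 genes, under 10 CPM, held 0.141% together. The values on either side of the upper limit were those of col-159 (1324 CPM) and col-149 (604 CPM).

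Of the 156 genes, 115 passed the filter on low counts and were tested, and 41 did not. The 41 had at most 36 counts over the 4 libraries and held 0.00445% of the col footprints. Of these, col-78, col-126 and col-127, chosen after their values were seen, had no count in any library, where a count of 0 allows up to 0.0911 to 0.135 CPM per library. Among the tested genes, 4 passed the filter through 1 group only: col-33, col-128 and col-152 through the mutant and col-54 through N2. None of these 4 passed the test.

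The comparison of the mutant with N2 showed small changes in both directions, with the largest ones in the tail. At an edgeR adjusted p under 0.05, 27 of the 115 col genes tested rose and 12 fell, and 76 did not pass. That is 23.5% higher and 10.4% lower, beside 17.4% higher and 16.6% lower among all 13086 genes tested, so the share called in either direction was, summed, close to the background. The median log2 fold change of the col genes was 0.09, beside 0.01 over all genes tested, and the middle 50% of col genes lay from -0.16 to 0.26, beside -0.16 to 0.23. In all 39 called genes the mutant libraries did not overlap the N2 libraries, but such separation was not particular to called genes. Of the 24 col genes of at least 1000 CPM, 16 were separated, whereas 6 were called higher and 2 lower. The share separated over all genes was not computed, so these counts of separated genes were not read as a result about the col genes. Of the 39, 32 lay within 1.5-fold and 3 changed more than 2-fold.

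The balance of risers and fallers depended on the scaling. Libraries were also centred on somatic marker genes other than collagens, taken from epidermis, body wall muscle, intestine and neurons. These were not an unchanged reference. By TMM scaling their median log2 fold changes were 0.20, 0.41, 0.21 and -0.04 in that order. With this centring the log2 fold changes of all genes shifted by -0.18. Then 14 col genes were higher and 29 lower, beside backgrounds of 8.16% and 36.9%. The col median was then -0.09, beside -0.17 over all genes. With upper-quartile scaling 39 col genes were higher and 9 lower. Shares over all genes were computed only for TMM scaling and somatic centring, so the upper-quartile counts have no background beside them. The col median was 0.05 without N2 replicate 1 and 0.13 without N2 replicate 2. The direction of a small change in a single col gene therefore holds relative to the TMM scaling, and 11 risers and 4 fallers passed in the same direction under all 14 other settings tried.

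**Figure D3:**
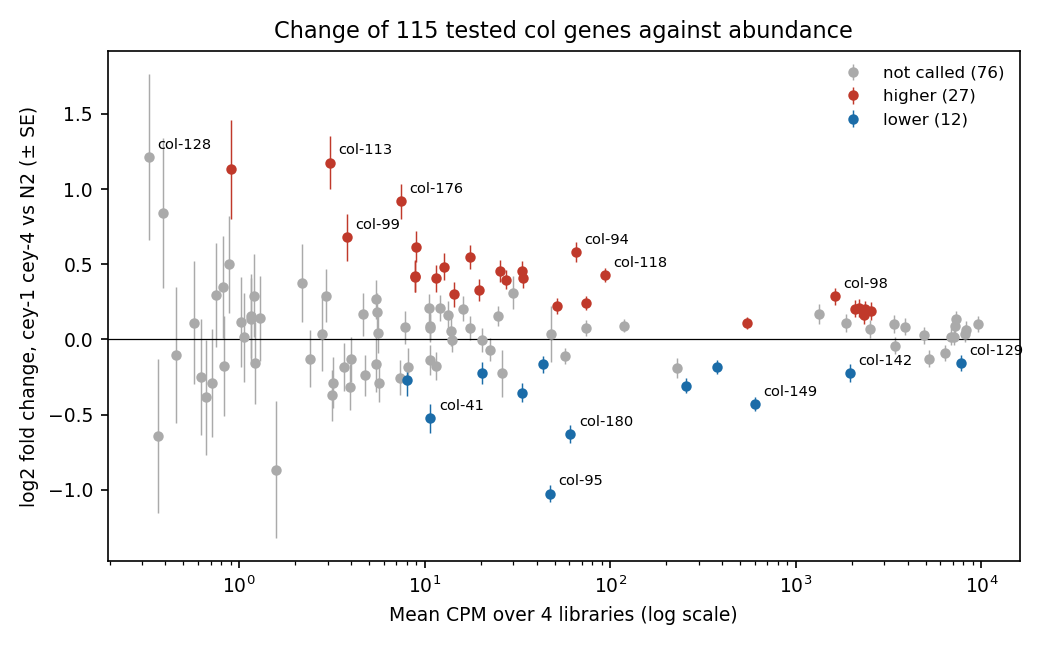
log2 fold change of the mutant relative to N2 (with SE bars) against mean CPM (log scale) for the 115 col genes tested, with 27 called higher in red, 12 called lower in blue and 76 not called in grey. The upper set on the right stays between -0.22 and 0.29, whereas called genes at lower abundance reach -1.03 and 1.18.

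Among the 24 genes of the upper set, 6 rose, 2 fell and 16 missed the threshold, with log2 fold changes of -0.22 to 0.29 and SEs of 0.054 to 0.068. Over all genes tested, 17.4% rose and 16.6% fell. All 24 were lower in N2 replicate 1 than in N2 replicate 2, by a median of 7.30%, and 23 were lower in mutant replicate 1 than in mutant replicate 2. The upper set summed to 104293 and 112562 CPM in N2 and to 110076 and 113448 CPM in the mutant, so the groups overlapped. The median log2 fold change of the set was 0.09 with all 4 libraries. It was 0.03 without N2 replicate 1, 0.14 without N2 replicate 2, 0.11 without mutant replicate 1 and 0.06 without mutant replicate 2. Centred on somatic markers, none rose and 6 fell, beside 8.16% and 36.9% of all genes, with a median of -0.09. None was called against a fold change of 1.2, where the share over all genes was not computed. Calls in this set thus turned on the scaling, and most also on single libraries, as given below.

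Of the 12 most abundant genes, col-129 alone passed the test. It had 7968 and 8390 CPM in N2 and 7288 and 7376 CPM in the mutant, where it was lower in both libraries. It fell by 0.16 on the log2 scale (edgeR, SE 0.055, adjusted p = 0.0184), and the call was lost without N2 replicate 2 (0.0536), mutant replicate 1 (0.227) or mutant replicate 2 (0.171). col-80 had 6658 and 7299 CPM in N2 and 7664 and 7661 CPM in the mutant, with a log2 fold change of 0.13 at the edge of the threshold (edgeR adjusted p = 0.0515). col-139 and col-81 had log2 fold changes of -0.13 and -0.09 (edgeR adjusted p = 0.0715 and 0.219), with both mutant libraries below both N2 libraries. Without N2 replicate 1, col-139 and col-81 passed as lower (edgeR adjusted p = 1.8e-05 and 0.00475), and without N2 replicate 2, col-140, col-80, col-124 and col-106 passed as higher (0.00587, 0.000655, 0.0431 and 0.0184). With all 4 libraries, col-139 also passed as lower with DESeq2 (0.0278), limma-voom (0.0121) and somatic centring (0.000314), and col-81 with somatic centring (0.00106). col-140 passed as higher with upper-quartile scaling (0.0238) and limma-voom (0.0362), col-124 with upper-quartile scaling (0.0484), and col-80 with upper-quartile scaling (0.00696), library totals (0.0376), the stricter filter (0.0156), limma-voom (0.0083) and limma on the deposited values (0.0492). By edgeR with TMM scaling, the other 7 besides col-140, namely col-20, col-122, col-124, col-181, col-119, col-19 and col-106, had log2 fold changes of 0.02 to 0.09 and edgeR adjusted p values of 0.23 to 0.836.

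The adult-specific collagen gene col-19 was among the most abundant and did not pass the test. It had 4703 and 5021 CPM in N2 and 4893 and 5017 CPM in the mutant, and the groups overlapped (edgeR log2 fold change 0.03 with SE 0.056, adjusted p = 0.755). The log2 fold change was -0.15 when centred on somatic markers (edgeR adjusted p = 0.0658).

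col-98 was the riser of the upper set whose call did not depend on any single library, and it was chosen after its values were seen. It had 1390 and 1532 CPM in N2 and 1733 and 1833 CPM in the mutant (edgeR log2 fold change 0.29 with SE 0.058, adjusted p = 4.56e-05). The call passed without each library in turn, with log2 fold changes of 0.22 to 0.36, but not when centred on somatic markers. The other 5 risers there, col-143, col-42, col-93, col-160 and col-103, rose by log2 fold changes of 0.16 to 0.21 and each lost its call without mutant replicate 2.

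The genes with the largest rises, leaving out any whose libraries averaged under 30 counts, came from the tail of the family. col-113 (WBGene00000687) rose most, from 2.16 and 1.62 CPM in N2 to 4.54 and 4.05 CPM in the mutant (edgeR log2 fold change 1.18 with SE 0.175, adjusted p = 6.81e-08). col-176 (WBGene00000749) rose from 5.35 and 4.89 CPM to 9.12 and 10.4 CPM (edgeR log2 fold change 0.92 with SE 0.116, adjusted p = 5.40e-10). In both genes the mutant libraries stood well apart from the N2 libraries, although the counts behind col-113 averaged 82.5 per library. col-45, under that minimum with a mean of 23.8 counts, rose by a log2 fold change of 1.13 (edgeR adjusted p = 0.00451) but did not pass without N2 replicate 1 (0.0733) or mutant replicate 2 (0.0521).

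col-99, next in size, differs from the cuticle collagens: it encodes a transmembrane collagen that has been studied in neurons and muscle. Its N2 libraries were almost equal at 2.92 and 2.91 CPM and its mutant libraries stood at 4.58 and 4.77 CPM (edgeR log2 fold change 0.68 with SE 0.154, adjusted p = 0.000273). Body wall muscle markers, of which 12 of 16 rose and none was at 0, summed to 18837 and 19947 CPM in N2 and 31337 and 31497 CPM in the mutant, and neuron markers, of which 3 of 15 rose and 4 fell, to 1119 and 1170 CPM in N2 and 1004 and 997 CPM in the mutant. Over all genes tested, 17.4% rose and 16.6% fell. The part of these markers in the col-99 result was not tested.

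col-48 rose from 7.14 and 6.90 CPM to 10.6 and 11.1 CPM (log2 fold change 0.62, edgeR adjusted p = 1.13e-06). col-94 rose from 52.1 and 52.2 CPM to 71.1 and 85.6 CPM (log2 fold change 0.58, edgeR adjusted p = 7.75e-06), with the wider spread in the mutant. col-118 was the most abundant of the 10 largest risers, at 78.7 and 80.6 CPM in N2 and 109 and 106 CPM in the mutant (edgeR log2 fold change 0.43 with SE 0.044, adjusted p = 5.29e-13). The remaining 4, col-175, col-104, col-73 and col-71, rose by log2 fold changes of 0.46 to 0.55 with edgeR adjusted p values of 6.66e-09 to 5.57e-06. All 10 passed in the same direction under each of the 14 other settings, as did col-138 (log2 fold change 0.41), chosen after its values were seen.

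Falls were fewer, and the largest was that of col-95 (WBGene00000670). It went from 61.4 and 64.8 CPM in N2 to 29.8 and 32.2 CPM in the mutant, 0.491 of the N2 level, and fell by 1.03 on the log2 scale (edgeR, SE 0.056, adjusted p = 3.46e-26). col-180 (WBGene00000753) went from 67.98 and 80.2 CPM to 48.4 and 47.0 CPM and fell by 0.63 (edgeR, SE 0.062, adjusted p = 1.10e-08). col-41 went from 12.6 and 12.7 CPM to 8.21 and 9.45 CPM and fell by 0.52 (edgeR, SE 0.096, adjusted p = 7.47e-06). In these 3 genes the difference between the means was well beyond the SD within either group.

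col-149 combined a clear fall with a higher level. It had 667 and 718 CPM in N2 and 520 and 508 CPM in the mutant, and fell by 0.43 on the log2 scale (edgeR, SE 0.045, adjusted p = 7.42e-13). These 4 genes passed in the same direction under each of the 14 other settings. Of the 6 genes between 100 and 1000 CPM, 3 fell (col-149, col-147 and col-133), 1 rose (col-179, which kept its call only without N2 replicate 2 among the 4 fits that left out a library) and 2 did not pass, and their median log2 fold change of -0.19 was the lowest of the 4 abundance ranges. The others were 0.09 above 1000 CPM, 0.12 between 10 and 100 CPM and 0.08 under 10 CPM. Over all genes tested, 17.4% rose and 16.6% fell. With only 6 genes, and limits drawn after the values were seen, that median was not read as a pattern.

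Of the other named fallers, col-167 fell by 0.35 and col-147 by 0.31 on the log2 scale (edgeR adjusted p = 3.44e-06 and 0.000345), and both passed without each library in turn. col-142, col-145, col-133 and col-60 fell by 0.22, 0.22, 0.18 and 0.27 (edgeR adjusted p = 0.00199, 0.011, 0.00587 and 0.0496). Each of these 4 lost its call without at least 1 library, and col-60 was called in none of the 3 fits without N2 replicate 2, mutant replicate 1 or mutant replicate 2 (edgeR adjusted p = 0.206, 0.0621 and 0.306). col-142 was not called without N2 replicate 2 (0.0993) or mutant replicate 1 (0.0674), nor col-133 without mutant replicate 1 (0.0863), nor col-145 without N2 replicate 1 (0.0856) or mutant replicate 2 (0.0846).

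**Figure D4:**
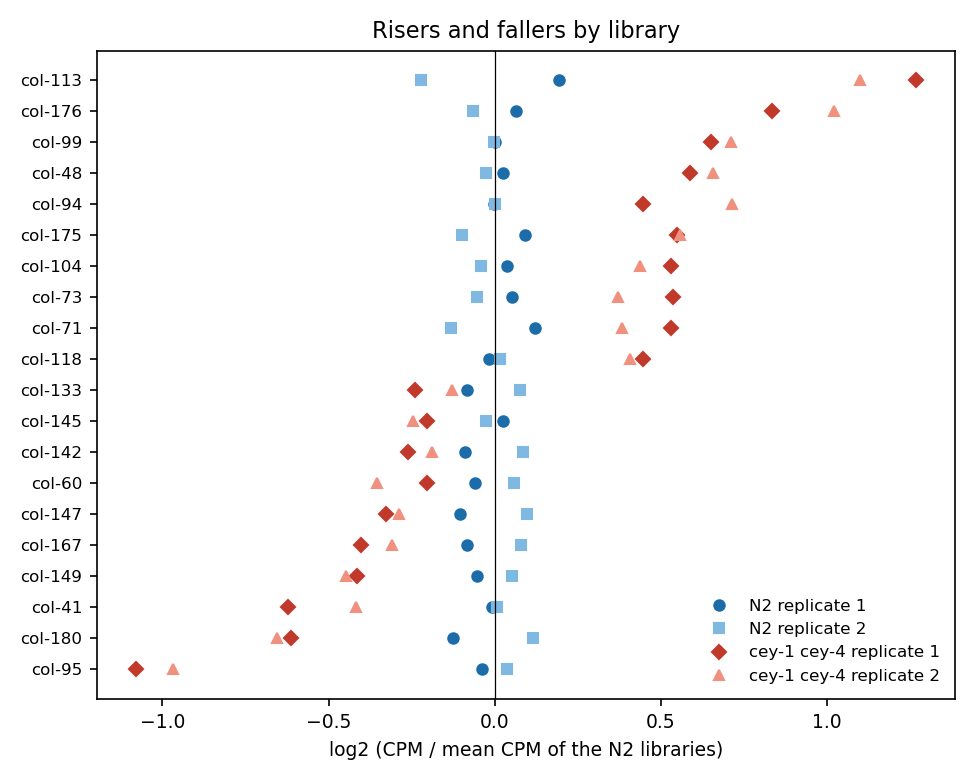
log2 of the CPM in each library over the mean CPM of the N2 libraries, for the 10 col genes with the largest rises (top) and the 10 with the largest falls (bottom). The genes run from col-113 (log2 fold change 1.18) to col-95 (-1.03). Both mutant libraries lie on one side of both N2 libraries in each gene because the rule that chose them required it.

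Of 14 members with a known stage or setting, 3 rose and 11 did not pass, with no fall; the share that rose was near the 17.4% over all genes, of which 16.6% fell. col-7, which like col-19 is switched on at the adult stage, had 7.20 and 10.1 CPM in N2 and 7.33 and 7.78 CPM in the mutant, overlapping groups (log2 fold change -0.18, edgeR adjusted p = 0.277). Without N2 replicate 1, the lower of its N2 libraries came out of the comparison and col-7 passed at -0.42 (edgeR adjusted p = 0.00407). col-17, a collagen of larval stages that is shut off in the adult, rose from 7.78 and 7.48 CPM to 11.3 and 8.998 CPM (edgeR log2 fold change 0.42 with SE 0.106, adjusted p = 0.00105), but did not pass without mutant replicate 1 (0.23, adjusted p = 0.237) or with somatic centring (0.0626). The dauer collagen gene col-2 was near the limit of detection, at 0.608 and 0.863 CPM in N2 and 1.10 and 0.945 CPM in the mutant (edgeR adjusted p = 0.247).

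The collagen genes col-10, col-13 and col-120, which have been tied to the long life of insulin receptor mutants, did not pass the test. col-10 had 13.6 and 14.6 CPM in N2 and 14.2 and 13.9 CPM in the mutant (edgeR log2 fold change -0.00059 with SE 0.083, adjusted p = 0.996). col-120 had 8.30 and 7.73 CPM in N2 and 7.44 and 5.89 CPM in the mutant (log2 fold change -0.26, edgeR adjusted p = 0.0812), and it passed without mutant replicate 1 (-0.45, adjusted p = 0.0201). col-13 and col-12 are neighbouring copies long known to be very alike, so their counts are uncertain, and their log2 fold changes were -0.16 and -0.07. col-13 passed without N2 replicate 1 (-0.45, adjusted p = 0.0116). Of the other genes listed with these, col-14 rose (log2 fold change 0.33, edgeR adjusted p = 0.000215; 0.0936 when centred on somatic markers), whereas col-8, col-34, col-62 and col-144 had log2 fold changes of -0.04 to 0.21 and did not pass. col-34 was at the edge (edgeR adjusted p = 0.0518) and passed without N2 replicate 2 (0.0231) or mutant replicate 1 (0.00377).

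Many col genes lie next to each other in the genome, and neighbours often differed in level. In the RefSeq gene order of the WBcel235 assembly, 26 pairs of adjacent protein-coding genes were both col genes, made up of 45 genes. In 12 of the 26 pairs the mean CPM of the neighbours differed more than 10-fold. An example is col-20 (8294 CPM), which lies between col-17 (8.89 CPM) and col-73 (33.4 CPM). Both neighbours were tested in 20 pairs. In 1 of these pairs both rose, in none did both fall, in 11 only 1 of the pair was called and in 8 neither was, and no pair held a riser beside a faller. Over all genes tested, 17.4% rose and 16.6% fell. Some genes belong to more than 1 pair, and 20 pairs are too few to read a pattern from these counts.

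col-93 and col-94 were the pair that both rose, although col-93 lost its call without 3 of the 4 libraries (all but N2 replicate 2). col-95 lies next to col-96, which had 67.7 and 75.3 CPM in N2 and 71.4 and 79.6 CPM in the mutant. The log2 fold changes of that pair were -1.03 (SE 0.056) and 0.08 (SE 0.053), and the difference between them was not tested. In the run from col-167 to col-171, col-167 fell and the other 4 did not pass the test, at log2 fold changes of -0.24 to 0.14. How alike the sequences of neighbours are was not examined.

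The collagens named for body shape showed rises and no called fall. Of 20 in the table, 19 were tested, 11 rose, none fell and 8 missed the threshold, with a median log2 fold change of 0.40. Over all genes tested, 17.4% were higher and 16.6% lower, with a median of 0.01. Centred on somatic markers, 8 were higher and 1 lower, beside 8.16% and 36.9% of all genes, with a median of 0.22 beside -0.17. They were scarce: together they summed to 176.4 and 174.3 CPM in N2 and 242 and 212 CPM in the mutant, far below the upper set of col genes. sqt-3, a collagen needed for normal body form, rose from 17.7 and 19.7 CPM to 28.0 and 25.5 CPM (log2 fold change 0.52, edgeR adjusted p = 5.79e-09). sqt-1 rose by a log2 fold change of 0.63, dpy-4 by 0.34 and dpy-5 by 0.23, the last of which did not pass without N2 replicate 2 (edgeR adjusted p = 0.0543) or mutant replicate 1 (0.267), or with somatic centring (0.541). Whether this list differs from the col genes was not tested.

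Calls among the genes that fold, export and join collagens were near the share over all genes (17.4% higher and 16.6% lower), and their direction turned on the scaling. Of 21, 20 were tested, of which 3 rose, 3 fell and 14 did not pass, with a median log2 fold change of -0.0054. Centred on somatic markers, 1 was higher and 8 lower, where all genes gave 8.16% and 36.9%. With upper-quartile scaling 6 were higher and 1 lower, and the share over all genes was not computed for that scaling. pdi-2, which encodes the protein disulfide isomerase subunit of collagen prolyl 4-hydroxylase, was the most abundant, at 1443 and 1535 CPM in N2 and 1576 and 1640 CPM in the mutant (log2 fold change 0.11, edgeR adjusted p = 0.127). fkb-5, a prolyl isomerase of the endoplasmic reticulum, rose by a log2 fold change of 0.42, and mlt-7, a peroxidase that cross-links the cuticle, by 0.31, a call lost with somatic centring (adjusted p = 0.0572). pdi-3 fell by 0.15 on the log2 scale (edgeR adjusted p = 0.0187), and did not pass without mutant replicate 1 (0.135) or mutant replicate 2 (0.0966). The prolyl hydroxylase gene dpy-18 and the oxidase gene bli-3 did not pass (log2 fold changes 0.09 and -0.0055) and were chosen after their values were seen.

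Of 35 cuticlin genes, which encode the insoluble non-collagen part of the cuticle and its relatives, 15 were tested and 1 rose, where 17.4% of all genes did. That gene was cut-2, from 11.9 and 10.6 CPM to 16.8 and 16.4 CPM (log2 fold change 0.56, edgeR adjusted p = 1.22e-07). cutl-15 had a log2 fold change of 0.55 and passed only without N2 replicate 2 (edgeR adjusted p = 0.0955 and 0.00909). Of 25 molting genes, all were tested, 8 rose, 3 fell and 14 did not pass, with a median of 0.26 that became 0.079 when centred on somatic markers (6 higher and 4 lower). The shares over all genes were 17.4% higher and 16.6% lower, and 8.16% and 36.9% when centred. lrp-1, a large endocytic receptor needed for molting, rose from 162 and 158 CPM to 204 and 211 CPM (log2 fold change 0.37), whereas dab-1, an adaptor protein gene, fell by 0.73 on the log2 scale.

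**Figure D5:**
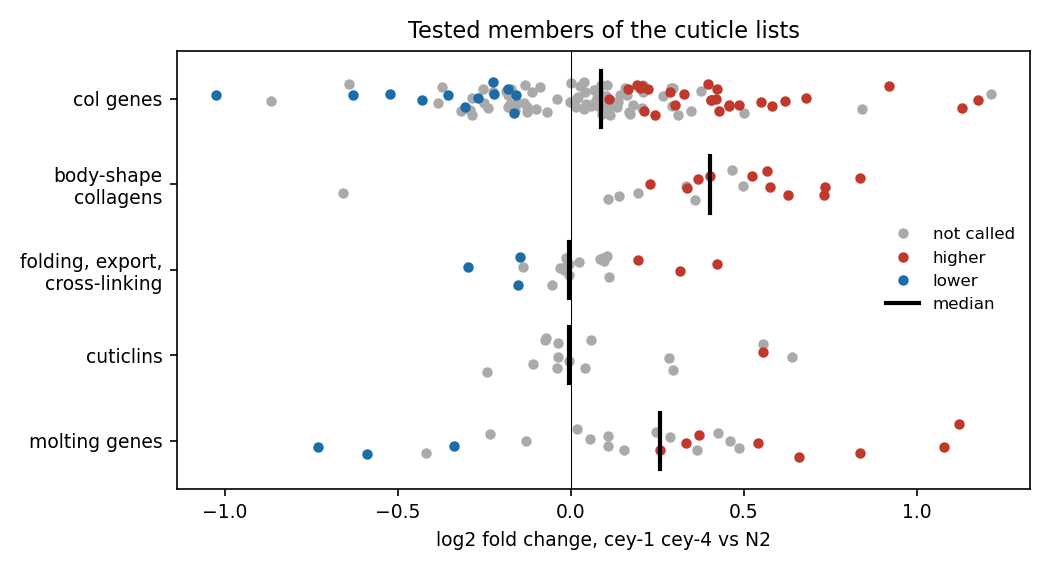
log2 fold change of the mutant relative to N2 for each tested member of 5 lists, with called genes in colour, members that did not pass in grey and the median as a black bar. Medians are 0.09 for the 115 col genes, 0.40 for body-shape collagens, -0.0054 for folding, export and cross-linking genes, -0.0046 for cuticlins and 0.26 for molting genes.

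Markers of other tissues differed between the groups by different amounts, and no marker was at 0 in all libraries. Summed epidermis markers, from the tissue that makes the cuticle, stood at 2128 and 2153 CPM in N2 and 2218 and 2224 CPM in the mutant, with 3 of 14 tested higher, 1 lower and 10 not passing. Intestine markers summed to 8938 and 8961 CPM in N2 and to 9991 and 10016 CPM in the mutant. Of 15 intestine markers tested, 8 were higher, 2 lower and 5 did not pass. Oocyte and eggshell markers summed to 7474 and 7716 CPM in N2 and 4577 and 4513 CPM in the mutant, with 21 of 22 lower. Sperm markers summed to 1295 and 1353 CPM in N2 and 1764 and 1867 CPM in the mutant, with 17 of 18 tested higher and 1 lower. Over all genes tested, 17.4% were higher and 16.6% lower. The part of these marker shifts in the col results was not tested.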

How the data were processed

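The authors deposited whole-number counts of ribosome footprints per gene for 4 libraries, and Bowtie is named in the submitters' processing notes with no version. For the build, annotation and counting rule, no statement was found: not given in the sources used here. A second deposited table holds log2 values; scaling each library to the lowest total and adding 8 before the log2 gave them back within 0.0005. Symbols came from a WormBase name table (18778 of 20179 features matched by identifier, after 3 repeats of genes already present were left out). Counts were fitted over all 13086 genes that passed filterByExpr (minimum count 10) in R 4.3.3 with edgeR 4.0.16 (TMM, robust glmQLFit, glmQLFTest, 2-sided), no term besides genotype, and p adjusted by Benjamini-Hochberg over all genes. Calls need an adjusted p under 0.05, and the SE is the log2 fold change over the square root of F. The test was also run on simulated counts drawn independently from the fitted spread. Such counts cannot show how it handles effects that a whole library shares.

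Named genes were the 12 col genes with the highest mean CPM, the 10 largest called rises and falls with at least 30 mean counts and separated groups, 14 genes with a known stage or setting, and from each pathway list the 2 most abundant and the 2 of lowest p. Members and lists were chosen with earlier results of these data known. Alternatives were DESeq2 1.42.0, limma 3.58.1 (voom, and on the deposited log2 values), upper-quartile or total scaling, centring on 58 somatic markers, other filters (none, or at least 50 counts in 2 libraries), a replicate block, a minimum fold change of 1.2 under the null and leaving out each library. Totals were 22303560 to 32913332 counts, and 3 counts amounted to 0.0911 to 0.135 CPM. Replicates of a strain differed beyond counting noise (a chi-square of 24.5 for N2 and 8.26 for the mutant, over its degrees of freedom), so none was a library deposited a second time.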

Additional observations from a re-analysis of the deposited data

How the results depend on the processing

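Of the 39 called col genes, 18 risers and 6 fallers passed without each library in turn, and 11 and 4 passed under all 14 other settings. Counts of col genes higher and lower moved to 14 and 29 with centring on somatic markers and to 12 and 4 against a fold change of 1.2. Leaving out 1 library gave 24 to 40 higher and 9 to 19 lower, and DESeq2 gave 20 and 9. The col median moved from 0.086 to -0.092 with somatic centring. Body-shape calls went from 11 to 7 with DESeq2 and 6 against a fold change of 1.2, molting calls from 11 to 6 and 7, and collagen folding, export and cross-linking calls from 6 to 1 against that fold. Without 1 library, these last calls ranged from 3 to 7 and cuticlin calls from 1 to 2. Without vit genes and K08E7.6 in the total, the col share was 12.2% in N2 and 12.6% in the mutant.

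Called genes outside the naming rule above kept their sign in each fit without 1 library. Where they lost their call under another setting, a change of sign was not checked. Of these, col-93 and col-179 rose by 0.16 and 0.11, less than the shift of -0.18 with somatic centring. Among the genes chosen by that rule, the sign changed only in some that were not called. With somatic centring it became negative in col-140 (-0.074), col-20 (-0.11), col-122 (-0.14), col-80 (-0.043), col-124 (-0.090), col-181 (-0.16), col-119 (-0.16), col-19 (-0.15), col-106 (-0.092), col-62 (-0.12), col-144 (-0.10) and pdi-2 (-0.067), of which col-119 then passed as lower (adjusted p = 0.0496). col-8 (0.0052), col-10 (0.045) and cut-4 (0.0047) turned positive with upper-quartile factors. col-10 also turned with library totals (0.0017), the stricter filter (0.0097), limma-voom (0.0013) and the replicate block (0.00043). Without 1 library the ranges spanned zero: col-122 (-0.025 to 0.10), col-181 (-0.044 to 0.082), col-119 (-0.026 to 0.060), col-19 (-0.021 to 0.074), col-7 (-0.42 to 0.064), col-8 (-0.086 to 0.0017), col-10 (-0.052 to 0.043), col-12 (-0.20 to 0.053), col-13 (-0.45 to 0.14), col-62 (-0.10 to 0.22) and cut-4 (-0.10 to 0.0052).

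Replicate numbers pair no samples by the labels. Deviations of libraries with the same number correlated at 0.236 over 8636 genes, and with the number as a replicate block 36 col genes were higher and 16 lower; col-140 (adjusted p = 0.0128), col-80 (0.00134), col-139 (0.00521), col-34 (0.0308) and pdi-2 (0.0303) then passed. The planned merging of genes at 90% protein identity was not run. The median SE was 0.0573 in col genes of at least 1000 CPM and 0.188 in those under 10 CPM, so depth limits the tail.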

Other observations

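Among the 41 col genes with too few counts to test, the highest total was 36 counts over the 4 libraries, and their fold changes cannot be read. col-36, chosen after its values were seen, had 3 and 3 counts in N2 and 15 and 8 counts in the mutant, and col-132 had 13 and 5 counts in N2 against 2 and 2 for the mutant. In both genes the groups did not overlap, and neither gene was tested.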
